A study of Mus musculus with 18 samples.

Results

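The data concern 39 genes of glycolysis and of the transcriptional response to low oxygen, chosen by gene name from a table of 54532 genes. Of these, 26 names belong to glycolysis and its branches (glucose transporters, the enzymes from hexokinase to lactate dehydrogenase, lactate transporters and pyruvate dehydrogenase kinases), and 13 to the hypoxia response (the HIF alpha subunits, the prolyl hydroxylases that control them and their target genes). The 39 names stood for 40 rows of the table, because *Aldoa* occurred under 2 gene identifiers. After the filter on low counts 37 of the 40 rows were tested. The glucose transporters *Slc2a3* and *Slc2a4* and the prolyl hydroxylase gene *Egln3* were not, with 4, 17 and 7 counts over all 18 libraries. Among the tested rows, *Aldoc* reached the minimum level in only 1 of the 6 groups, the second *Aldoa* row (ENSMUSG00000114515) and *Ankrd37* in 2, *Car9* and *Eno2* in 3 and *Slc16a3* in 4, so that differences of these genes between groups were partly set by the filter.

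RNA was sequenced from 10T1/2 cells (CH310T1/2 in the labels), a mouse line of multipotent mesenchymal cells that can become adipocytes or myofibroblasts. WT cells and FOXS1 KO clones 1 and 2, each grown from a single cell after CRISPR editing, were left uninduced or were stimulated, first by 12 h of TGF-β1 at 1 nM and next by 48 h of DMII, giving 6 groups of 3 libraries. DMII is an adipogenic mixture that holds insulin, indomethacin, dexamethasone and 3-isobutyl-1-methylxanthine. The study's methods give a different basal medium for the DMII step than for maintaining the cells. The medium of the uninduced controls is not stated there. The methods also describe serum starvation before TGF-β1 and growth past confluence before induction, and name no change of oxygen. The agents, the medium and any step that the controls did not share therefore cannot be told apart in a response. Each clone stands for 1 editing event. The comparisons of clone 1 and of clone 2 share their WT libraries.

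Glycolysis splits glucose into pyruvate in the cytosol, and lactate dehydrogenase with the monocarboxylate transporters disposes of pyruvate as lactate where it does not enter mitochondria. The HIF alpha subunits are transcription factors that prolyl hydroxylases mark for degradation while oxygen is present; when stabilised, they bind short DNA elements and raise transcription of most glycolytic genes and of genes for blood vessel growth, mitochondrial turnover and pH control. In mesenchymal cells, TGF-β1 and insulin also act on many of these genes without any shortage of oxygen.

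Values are CPM, counts scaled to the TMM-normalized size of each library, given per library or as mean ± SD (n = 3). Differences are log2 fold changes ± SE from edgeR's quasi-likelihood test, with p values adjusted by Benjamini-Hochberg over the 14317 genes tested. A DEG, or differentially expressed gene, passed an adjusted p of 0.05 with a log2 fold change beyond 1 in either direction. The labels do not say whether replicates were separate cultures, so p values measure the spread between these libraries. In bulk RNA, fewer cells of a type and less RNA per cell cannot be told apart.

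Library totals ran from 15576685 to 42005596 counts. *Foxs1*, the targeted gene, had 1.81, 3.25 and 1.64 CPM in uninduced WT libraries and 3.13, 2.55 and 1.85 CPM in stimulated ones, against group means of 25.7 ± 2.04 and 54.5 ± 2.06 CPM in clone 1 and 22.6 ± 1.44 and 39.9 ± 2.59 CPM in clone 2. The transcript count therefore went against a simple loss in the libraries labelled FOXS1 KO, although a count over a whole gene does not show whether an edited exon is intact. Every direction between clone and WT given here rests on the labels, and clone 1 and clone 2 mean the libraries so labelled. Of the fibroblast markers all 8 were tested, and their summed level was 33992 to 79246 CPM in all libraries, but *Thy1* was near 0 in clone 2 (0.342 ± 0.192 CPM when stimulated, against 49.0 ± 2.70 in WT). The 7 adipocyte markers summed to 30.5 to 43.0 CPM in stimulated clone 1, 2.71 to 4.64 in stimulated clone 2 and 0.293 to 1.22 in stimulated WT, with *Lep* and *Retn* at 0 in every library. The 4 myofibroblast markers summed to 1981 to 2135 CPM in stimulated WT and to 298 to 339 CPM in the stimulated clones, nearly all of it from *Acta2*, with *Tagln* and *Cnn1* at group means of at most 0.804 and 0.722 CPM. The macrophage marker *Ptprc* was at 0 in every library, and the endothelial and epithelial lists summed to at most 7.92 and 3.23 CPM. The part of these differences in the results below was not tested.

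RefSeq promoter sequences (GRCm38.p6) were matched for 34 of the 39 names, not for *Slc2a3*, *Slc2a4*, *Epas1*, *Bnip3l* and *Ndrg1*. The letters ACGTG and GCGTG, the cores of the element bound by HIF proteins, were searched on both strands of the 250 bases before each start. ACGTG occurred in 17 of 34 member promoters, compared with 16.6% of all 32851 promoters, and GCGTG also in 17, compared with 28.2%. At least 1 of them was present in 27 (79.4%), against 38.6% of all promoters. Member promoters were also richer in G and C, with a median of 61.0% against 52.4%. Each member had 1 promoter, the one nearest its gene start, whereas the comparison took every promoter, of expressed genes or not. A match is a description of letters, not of binding. *Slc16a1*, *Ddit4* and *Bnip3* are among the 6 members that were DEGs above 0 in the difference in response of each clone. *Ldhb* was lower in each clone in each treatment. The sequences below are examples from these genes. They are written 5′ to 3′ on the strand of the gene and end before the first base of the GENCODE gene, and capitals mark ACGTG or GCGTG on either strand. CACGTG reads as ACGTG on both strands.
Slc16a1 (chr3:104638414-104638663, plus strand): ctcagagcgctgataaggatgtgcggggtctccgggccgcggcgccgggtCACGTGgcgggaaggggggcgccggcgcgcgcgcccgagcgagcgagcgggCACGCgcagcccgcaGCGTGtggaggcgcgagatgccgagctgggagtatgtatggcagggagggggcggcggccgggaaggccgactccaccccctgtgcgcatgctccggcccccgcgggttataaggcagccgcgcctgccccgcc
Ddit4 (chr10:59951835-59952020, minus strand): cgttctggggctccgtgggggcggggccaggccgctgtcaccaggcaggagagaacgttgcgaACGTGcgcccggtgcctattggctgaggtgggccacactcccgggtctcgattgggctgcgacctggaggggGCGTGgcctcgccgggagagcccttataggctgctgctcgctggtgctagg
Bnip3 (chr7:138909520-138909756, minus strand): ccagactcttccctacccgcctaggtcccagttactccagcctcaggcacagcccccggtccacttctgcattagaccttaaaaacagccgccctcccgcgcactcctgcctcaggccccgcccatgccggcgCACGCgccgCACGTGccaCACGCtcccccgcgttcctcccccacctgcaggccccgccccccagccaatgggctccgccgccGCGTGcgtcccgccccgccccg
Ldhb (chr6:142507958-142508207, minus strand): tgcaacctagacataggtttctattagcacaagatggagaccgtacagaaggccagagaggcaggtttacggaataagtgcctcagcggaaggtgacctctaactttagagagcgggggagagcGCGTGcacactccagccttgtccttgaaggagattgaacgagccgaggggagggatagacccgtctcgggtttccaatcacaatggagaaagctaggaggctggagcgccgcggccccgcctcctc
The *Slc16a1* stretch held 1 CACGTG palindrome and 2 GCGTG, the *Bnip3* stretch 1 palindrome and 3 GCGTG, and the *Ddit4* stretch held ACGTG and GCGTG once each. The *Ldhb* stretch held a single GCGTG and no ACGTG. Over the whole 250 bases, *Slc2a1* and *Pfkfb3*, also DEGs in both differences in response, held 1 ACGTG each, and *Slc2a1* 1 GCGTG. In both, part or all of the ACGTG lay past the start of the GENCODE gene. *Adm*, lower in each stimulated clone, held 2 GCGTG and no ACGTG. *Vegfa*, higher after stimulation in each genotype, held neither. A link between these letters and the responses was not tested.

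Levels can be compared between genes only per length, here as CPM per kb of the gene length in the deposited table. That length spans all exons and can exceed the longest coding transcript. It was 5379 against 2027 bases for *Eno1*, 3310 against 1815 for *Ldha* and 2244 against 1825 for *Pgk1*. The order given here therefore holds on this scale only and can differ per kb of transcript. In uninduced WT cells the most abundant members on that scale were *Pkm*, pyruvate kinase, with 254 ± 10.6, *Aldoa*, aldolase, with 231 ± 12.2, and *Pgk1*, phosphoglycerate kinase, with 211 ± 13.7. *Ldha* followed with 191 ± 2.54, then *Pgam1* with 139 ± 15.8, *Tpi1* with 124 ± 1.99 and *Eno1* with 111 ± 5.22. The SDs of *Pgam1* and *Tpi1* overlapped, and so did those of *Aldoa* and *Pgk1*. Among the hypoxia-response members *Ddit4* stood highest with 83.4 ± 4.69 and *Car9* was far lower with 2.50 ± 0.458 CPM per kb.

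*Gapdh*, which carries the step between triose phosphates and *Pgk1*, was listed at 3.51 ± 1.53 CPM per kb, far below the enzymes on either side of it. Its values were also uneven between replicates, at 8.68, 98.0 and 80.4 CPM in the libraries of stimulated clone 1 and 84.3, 12.6 and 19.5 CPM in those of stimulated clone 2. No comparison of *Gapdh* passed the test with all libraries in edgeR, although DESeq2 called its response in clone 2 (2.29, adjusted p = 0.0312) and edgeR called that in clone 1 without uninduced clone 1 replicate 2 (3.32, adjusted p = 0.0373). Of the stretches of 50 bases in its longest coding transcript, 90.4% also occur in transcripts of other genes, 223 of them, most often *Gm7336*. How reads shared between genes were counted is not given in the sources used here, so the *Gapdh* row was not read as the level of its mRNA. The same share was 72.2% for *Eno1*, 68.0% for *Pgk1*, 62.4% for *Bnip3*, 41.5% for *Pgam1*, 34.4% for *Pkm*, 27.0% for *Ldhb*, 25.3% for *Gpi1* and 25.1% for *Bnip3l*, and at most 17.1% for the other members. The levels of those 8 genes are therefore uncertain.

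**Figure D1:**
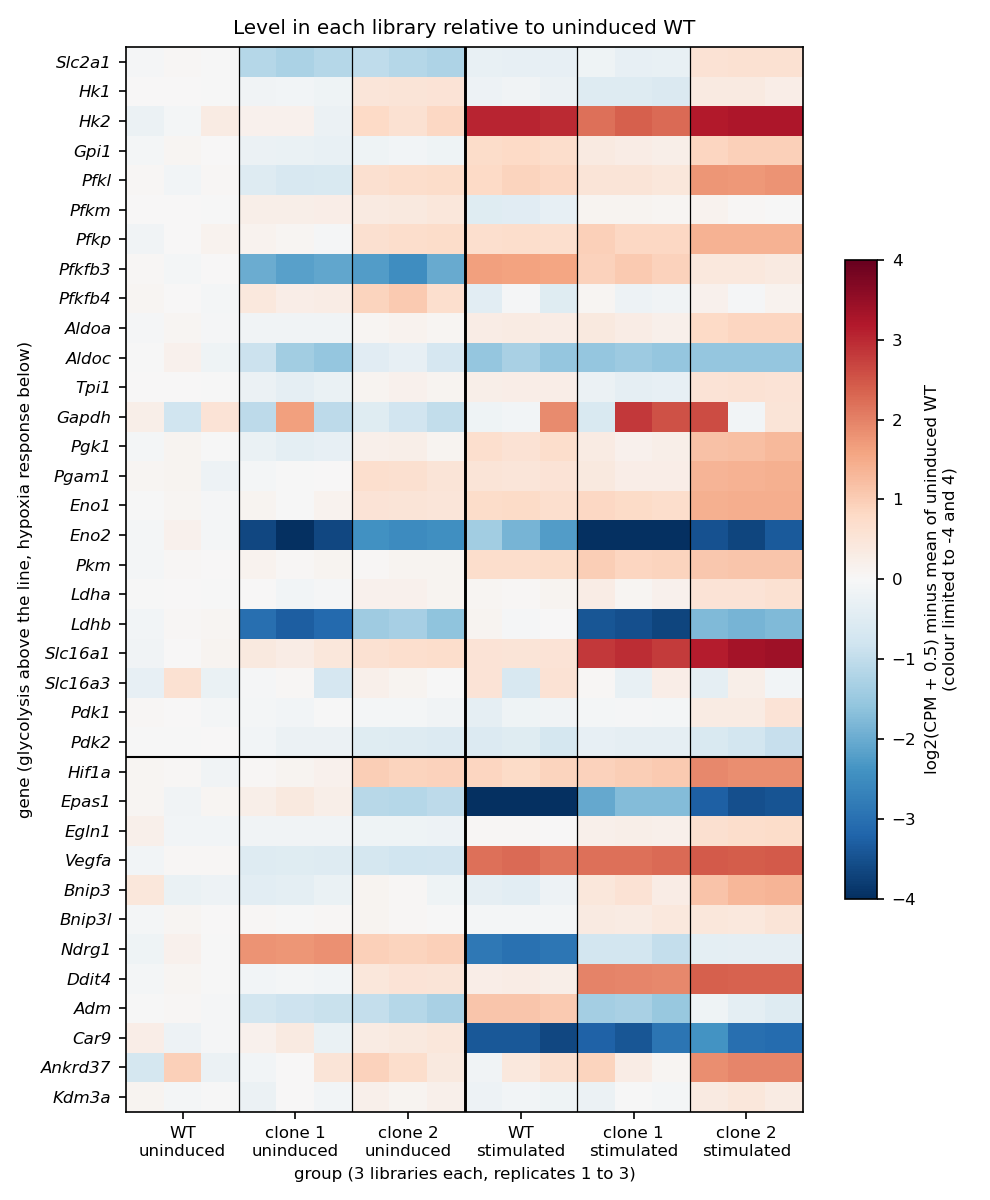
Level of each tested member in each of the 18 libraries, as log2(CPM + 0.5) minus the mean of the uninduced WT libraries, with red above and blue below that mean. The row named Aldoa is the main gene, and the second Aldoa row is left out. *Hk2*, *Vegfa* and *Pfkfb3* are red in stimulated WT, *Slc16a1* and *Ddit4* are red in the stimulated clones, *Ldhb* is blue in all clone libraries, and *Gapdh* is uneven within groups.

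The first question was how these genes responded to TGF-β1 + DMII in WT cells. Among the glycolysis genes *Hk2*, the inducible hexokinase, rose from 8.37 ± 1.87 to 70.7 ± 1.76 CPM, a log2 fold change of 3.05 ± 0.11 (adjusted p = 6.81e-20). *Pfkfb3*, the bifunctional enzyme that makes the activator of phosphofructokinase, rose by 1.62 ± 0.069, while *Eno2*, the neuronal enolase, fell. Of the hypoxia targets, *Vegfa*, the growth factor of blood vessels, rose by 2.22 ± 0.054, and *Car9*, a carbonic anhydrase of the cell surface, dropped from 5.77 ± 1.06 to 0.0614 ± 0.0535 CPM.

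In WT cells 4 of the 37 tested members were DEGs with a higher level after stimulation (*Hk2*, *Pfkfb3*, *Vegfa* and *Adm*), where 6.25% of all tested genes were. With a lower level 5 were DEGs (*Aldoc*, *Eno2*, *Epas1*, *Ndrg1* and *Car9*), against 13.6% of all tested genes. The DEG count below 0 was thus near the background. *Aldoc*, *Eno2* and *Car9* passed the filter on low counts through groups where they were high, here and in the responses of the clones. At the adjusted p alone, 16 were higher and 11 lower, against 28.8% and 31.9%. The median log2 fold change of the 37 was 0.25, and that of all genes was -0.04. Most enzymes of the main chain shifted by less than the fold threshold. Among those that passed the adjusted p alone, log2 fold changes were 0.74 ± 0.048 for *Gpi1*, 0.85 ± 0.050 for *Pfkl*, 0.64 ± 0.051 for *Pgk1*, 0.72 ± 0.046 for *Eno1* and 0.71 ± 0.041 for *Pkm*. *Ldha* had 0.07 ± 0.048 (adjusted p = 0.191) and did not pass. *Slc2a1*, which held nearly all counts of the glucose transporters among the members, fell slightly (-0.32 ± 0.056).

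In clone 1 the response held 6 DEGs with a higher level (*Hk2*, *Pfkl*, *Pfkfb3*, *Slc16a1*, *Vegfa* and *Ddit4*), against 5.95% of all genes, and 4 with a lower level (*Eno2*, *Epas1*, *Ndrg1* and *Car9*), against 10.7%. By adjusted p alone the counts were 19 higher and 9 lower, beside 25.9% and 28.6% of all genes, and the median was 0.36. In clone 2 it held 12 DEGs with a higher level, against 6.46%, and 5 with a lower level, against 11.2%. The 12 were *Slc2a1*, *Hk2*, *Gpi1*, *Pfkl*, *Pfkfb3*, *Pgk1*, *Pkm*, *Slc16a1*, *Vegfa*, *Bnip3*, *Ddit4* and *Ankrd37*, and the 5 were those of WT. By adjusted p alone 24 were higher and 10 lower, beside 26.7% and 29.1%, and the median was 0.75. *Gpi1* (1.08), *Pgk1* (1.04) and *Pkm* (1.01) stood just past the fold threshold in clone 2, while *Hif1a* (0.96) stood just inside it. Without uninduced clone 2 replicate 1, *Pkm* was at 0.99 and no longer a DEG. *Ankrd37*, a low-count gene, lost its call without uninduced clone 2 replicate 2 (1.61, adjusted p = 0.0524) or replicate 3 (1.44, adjusted p = 0.0739).

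*Aldoc* ended at or near 0 in all stimulated cells. In clone 2 its 47 counts in uninduced libraries compared with 0 in stimulated ones, at least 9.21-fold lower at a floor of 3 counts over the group. In WT its 59 counts fell to 2, a ratio of 31.1 with a 95% counting interval of 8.23 to 262. Setting *Aldoc* at its bound left the clone 2 median at 0.75.

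The summed level of the 17 enzyme genes from hexokinase to lactate dehydrogenase, with *Aldoa* counted by its main row, was 5129 to 5436 CPM in uninduced WT and 7277 to 7349 CPM in stimulated WT. It was 4815 to 5041 and 6933 to 7417 CPM in clone 1, and 6060 to 6235 and 10234 to 10485 CPM in clone 2. Stimulated clone 2 stood above every other library, and stimulated WT and clone 1 overlapped. Stimulated libraries did not overlap with uninduced ones in any genotype. The sum includes the *Gapdh* row, which was not read as a level of mRNA. It also includes *Pkm*, *Eno1*, *Pgk1*, *Pgam1*, *Gpi1* and *Ldhb*, whose levels are uncertain, and it is not scaled by gene length.

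**Figure D2:**
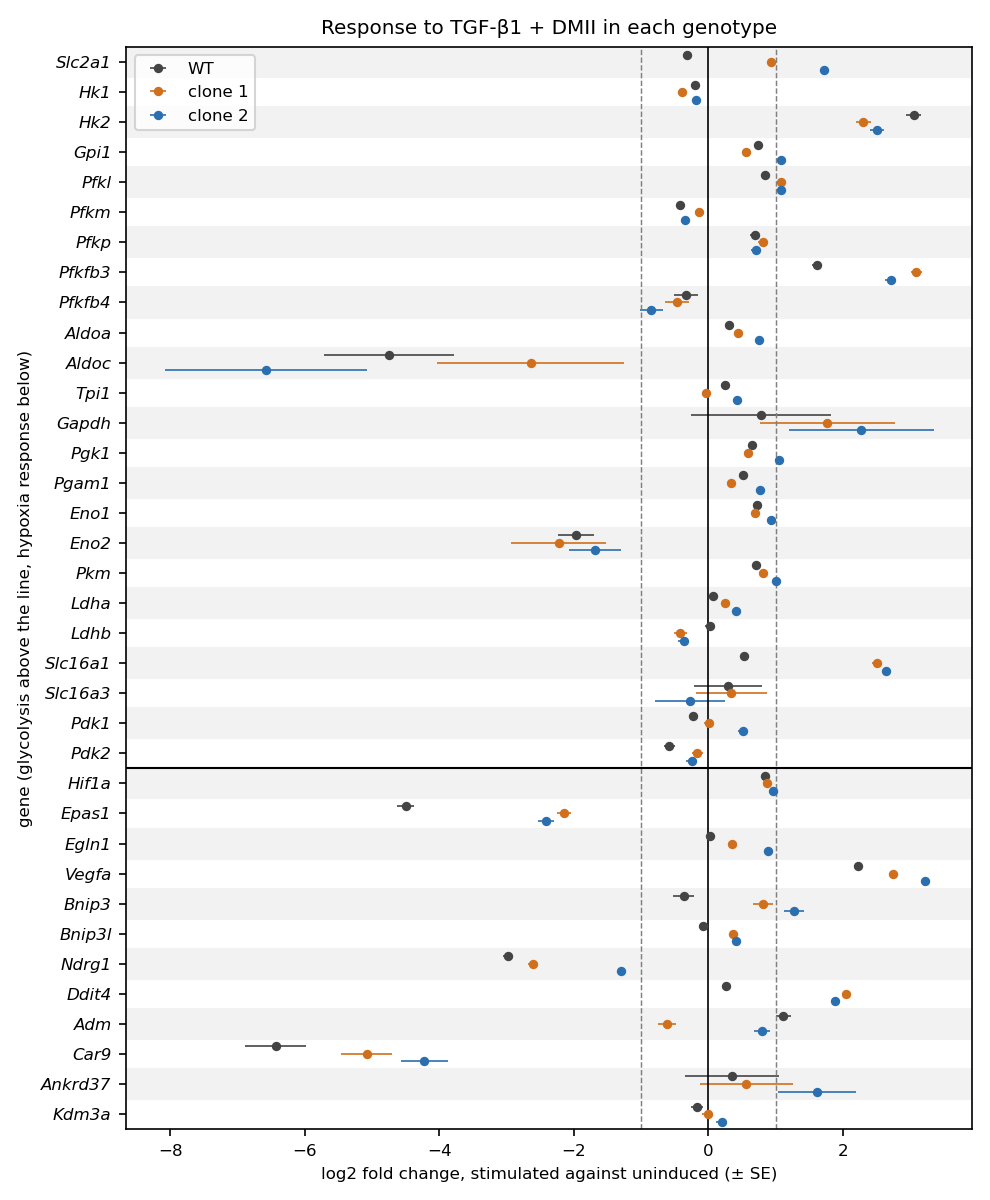
Log2 fold change of each tested member on stimulation with TGF-β1 + DMII, with SE, in WT cells and in clones 1 and 2, with dashed lines at the DEG threshold of 1 in either direction. *Hk2*, *Pfkfb3* and *Vegfa* lie to the right in all 3 genotypes and *Epas1*, *Ndrg1*, *Eno2* and *Car9* to the left. *Slc16a1*, *Ddit4*, *Slc2a1* and *Bnip3* lie further right in the clones than in WT. The fitted values of *Aldoc* rest on 0 to 2 counts in stimulated groups and are no measure of size.

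Uninduced clones were compared with uninduced WT to see which members differed before stimulation. *Slc2a1* and *Pfkfb3*, genes of glucose entry and of its control, were lower in each clone. *Slc2a1* stood at 169, 181 and 173 CPM in the WT libraries, 78.4, 71.6 and 79.3 CPM in clone 1 and 86.4, 79.6 and 73.3 CPM in clone 2. All clone libraries were below all WT libraries, with log2 fold changes of -1.19 ± 0.058 (adjusted p = 7.41e-17) in clone 1 and -1.12 ± 0.057 (adjusted p = 1.87e-16) in clone 2. The 14 tested genes within 500 kb of *Slc2a1* were also lower, with medians of -0.98 and -1.02 against WT when stimulated. The part of this regional shift in the *Slc2a1* values was not tested. *Pfkfb3* had 54.6, 50.7 and 53.9 CPM in WT, 13.2, 11.4 and 12.1 CPM in clone 1 and 10.8, 8.99 and 12.8 CPM in clone 2. Again no clone library reached the WT range, at -2.12 ± 0.083 (adjusted p = 3.85e-19) and -2.30 ± 0.081 (adjusted p = 2.96e-20).

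*Ldhb*, the lactate dehydrogenase subunit that favours pyruvate formation, was lower by a wider margin. It stood at 117, 129 and 133 CPM in uninduced WT libraries, 15.2, 12.4 and 14.1 CPM in clone 1 and 47.1, 49.5 and 41.3 CPM in clone 2. The groups formed 3 separate levels, with log2 fold changes of -3.18 ± 0.083 and -1.45 ± 0.073 against WT. The 6 tested genes within 500 kb of *Ldhb* had medians of 0.19 for clone 1 and 0.12 for clone 2 when stimulated. *Eno2* had 9.49, 11.5 and 9.53 CPM in WT, 0.359, 0.161 and 0.362 CPM in clone 1 and 1.47, 1.37 and 1.45 CPM in clone 2. It too separated into 3 levels, at -5.08 ± 0.36 and -2.82 ± 0.28.

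Over the 37 tested members, uninduced clone 1 had 1 DEG above WT (*Ndrg1*), against 6.32% of all genes, and 5 below (*Slc2a1*, *Pfkfb3*, *Aldoc*, *Eno2* and *Ldhb*), against 8.73%. *Aldoc* rested on 59 counts in WT and 7 in clone 1. Uninduced clone 2 had 1 above (the second *Aldoa* row), against 5.54%, and 6 below (*Slc2a1*, *Pfkfb3*, *Eno2*, *Ldhb*, *Epas1* and *Adm*), against 9.56%. That *Aldoa* row reached the minimum level in only 2 of the 6 groups, *Eno2* in 3 and *Aldoc* in 1. These rows passed the filter on low counts through groups where they were high. The medians were -0.10 and 0.13. Clone 1 had *Ldha* at -0.05 ± 0.048 (adjusted p = 0.349) and *Hk2* at 0.01 ± 0.13 (adjusted p = 0.969) against WT, neither past the test.

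In stimulated cells the question was how each clone differed from WT after the same induction. *Slc16a1*, *Ddit4*, *Ndrg1* and the second *Aldoa* row were DEGs above WT in each clone. *Ldhb*, *Eno2* and *Adm* were DEGs below WT in each. *Hk1*, *Hk2*, *Gpi1*, the 3 phosphofructokinase genes, *Aldoa*, *Tpi1*, *Pgk1*, *Pgam1*, *Eno1*, *Pkm* and *Ldha* stayed within the fold threshold in both clones. Closest to it among them were *Pfkl* at 0.92 and *Pgam1* at 0.87 in clone 2 and *Hk2* at -0.74 in clone 1.

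*Slc16a1* encodes MCT1, a carrier of lactate and pyruvate across the plasma membrane. It stood at 34.5, 34.2 and 34.7 CPM in stimulated WT libraries, 171, 186 and 169 CPM in clone 1 and 214, 239 and 253 CPM in clone 2. Before stimulation the values were 21.3, 24.0 and 25.7 CPM in WT, 31.4, 29.2 and 32.5 CPM in clone 1 and 36.6, 38.3 and 38.6 CPM in clone 2. Uninduced clones were slightly above WT (0.38 and 0.66), and every stimulated clone library was far above every other library. The log2 fold change against stimulated WT was 2.35 ± 0.067 (adjusted p = 9.74e-23) in clone 1 and 2.77 ± 0.068 (adjusted p = 2.67e-24) in clone 2. The 8 tested genes within 500 kb of *Slc16a1* had medians of 0.35 and 0.40 in the same comparisons. *Slc16a3*, the exporter MCT4, was near 1 CPM in every group and did not pass any test.

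*Ddit4* encodes REDD1, an inhibitor of mTORC1 signalling induced by low oxygen and by glucocorticoids. Its stimulated values were 174, 182 and 171 CPM in WT, 578, 562 and 553 CPM in clone 1 and 777, 755 and 754 CPM in clone 2. Uninduced libraries had 139, 155 and 144 CPM in WT, 136, 139 and 137 CPM in clone 1 and 199, 215 and 209.7 CPM in clone 2. The 3 stimulated groups did not overlap, with log2 fold changes against WT of 1.69 ± 0.046 (adjusted p = 2.49e-23) and 2.12 ± 0.046 (adjusted p = 1.6e-25). On chromosome 10, which carries *Ddit4*, the median gene stood at -0.43 in stimulated clone 1 and 0.05 in clone 2, and its 11 tested neighbours within 500 kb had -0.05 and 0.71.

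*Ndrg1*, a stress-response gene induced by hypoxia, was at 70.4, 89.1 and 78.1 CPM in uninduced WT, 272, 272 and 282 CPM in clone 1 and 152, 145 and 153 CPM in clone 2. After stimulation the values were 10.4, 9.55 and 10.2 CPM in WT, 47.5, 47.2 and 40.5 CPM in clone 1 and 59.8, 61.9 and 61.2 CPM in clone 2. Clone libraries exceeded WT libraries in each treatment, and stimulated libraries were lower than uninduced ones in each genotype. Stimulated clones differed from WT by 2.16 ± 0.082 (adjusted p = 8.62e-20) and 2.60 ± 0.081 (adjusted p = 1.06e-21). Chromosome 15, where the gene lies, had a median of 0.45 in clone 1 and 0.43 in clone 2. The 5 tested genes within 500 kb of *Ndrg1* had medians of -1.28 and 0.57. The part of these shifts in the *Ndrg1* values was not tested.

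**Figure D3:**
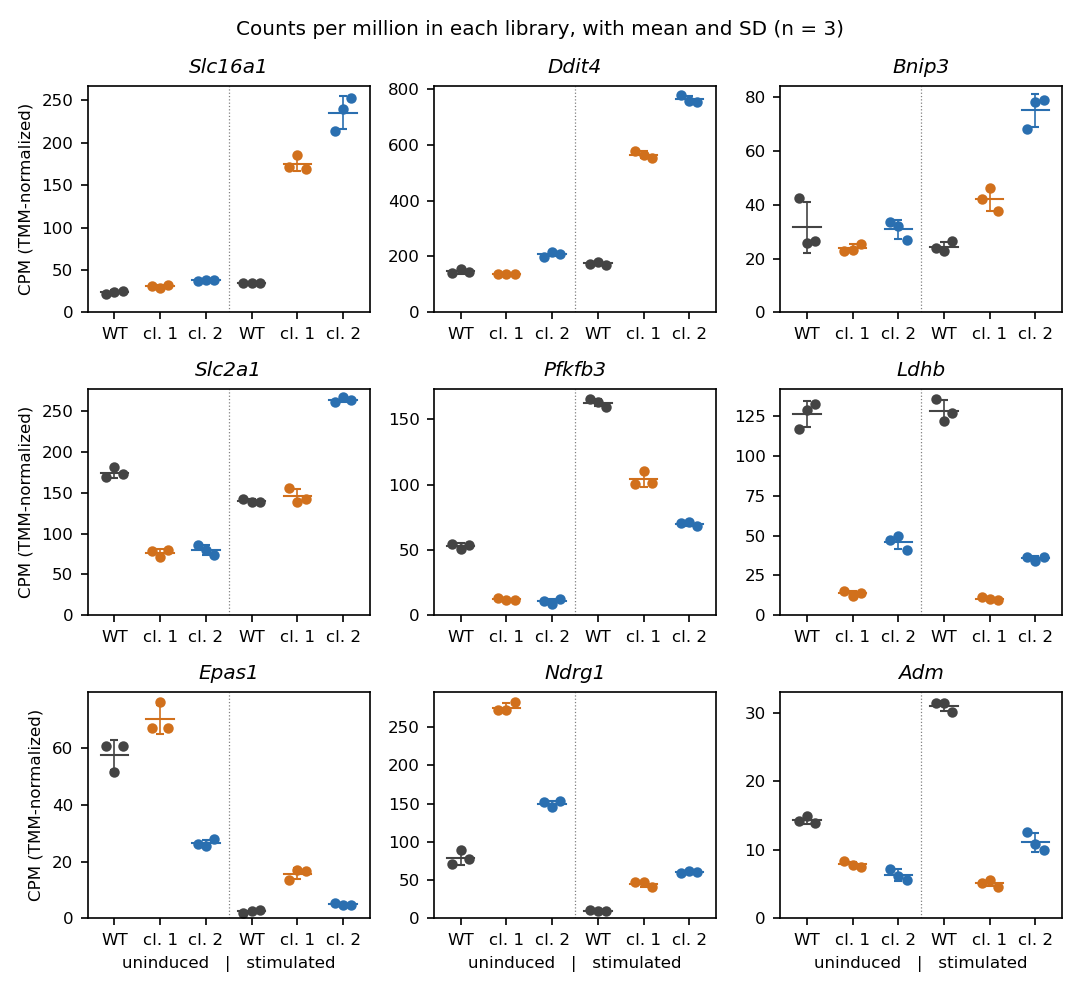
TMM-normalized CPM of 9 members in each library, uninduced at left and stimulated at right, with the mean and SD of the 3 libraries of each group. *Slc16a1* and *Ddit4* are closer to WT in uninduced clones than in stimulated clones, where they are above every WT library, *Slc2a1* and *Pfkfb3* start lower in the clones, and *Ldhb* is lower in the clones in both treatments.

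*Ldhb* remained low after stimulation, at 136, 122 and 127 CPM in WT, 11.2, 10.5 and 9.52 CPM in clone 1 and 36.6, 34.2 and 36.4 CPM in clone 2. Clone 1 lay below clone 2 and clone 2 below WT in every library, at -3.62 ± 0.085 (adjusted p = 8.08e-25) and -1.84 ± 0.076 (adjusted p = 8.67e-19) against WT. *Eno2* had 3.57, 2.46 and 1.76 CPM in stimulated WT, 0.0532, 0.111 and 0 CPM in clone 1 and 0.448, 0.327 and 0.541 CPM in clone 2. No clone library reached the WT range, and the differences were -5.33 ± 0.49 (adjusted p = 1.08e-10) and -2.54 ± 0.37 (adjusted p = 7.98e-07), with 4 counts in all behind the clone 1 group. *Adm*, which encodes the vasodilator peptide adrenomedullin, had 31.4, 31.4 and 30.2 CPM in stimulated WT, 5.22, 5.53 and 4.65 CPM in clone 1 and 12.7, 10.9 and 9.92 CPM in clone 2. Uninduced values of *Adm* were 14.2, 14.9 and 14.0 CPM in WT, 8.35, 7.78 and 7.56 CPM in clone 1 and 7.23, 6.20 and 5.57 CPM in clone 2. WT was highest in both treatments, and the stimulated differences were -2.59 ± 0.12 (adjusted p = 1.76e-17) and -1.47 ± 0.11 (adjusted p = 3.08e-12).

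*Hif1a*, the gene of the main HIF alpha subunit, differed in clone 2. Its stimulated libraries had 261, 244 and 261 CPM in WT, 269, 281 and 295 CPM in clone 1 and 542, 517 and 519 CPM in clone 2. Uninduced libraries had 151, 147 and 130.1 CPM in WT, 148, 153 and 159 CPM in clone 1 and 279, 262 and 268 CPM in clone 2. Clone 2 was above the other groups of the same treatment before and after stimulation, at 0.92 ± 0.053 and 1.04 ± 0.052 (adjusted p = 9.89e-17) against WT, whereas stimulated clone 1 was at 0.14 ± 0.052. The median of chromosome 12, its chromosome, was -0.25 in stimulated clone 1 and 0.18 in clone 2, and the 3 tested neighbours within 500 kb had medians of -0.83 and 1.27.

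*Epas1*, which encodes HIF2α, fell on stimulation in every genotype. It had 60.8, 51.6 and 60.7 CPM in uninduced WT, 67.2, 76.2 and 67.3 CPM in clone 1 and 26.2, 25.7 and 27.8 CPM in clone 2. Stimulated libraries had 2.05, 2.68 and 2.89 CPM in WT, 13.4, 17.1 and 16.9 CPM in clone 1 and 5.49, 4.58 and 4.81 CPM in clone 2. The stimulated groups did not overlap, with clone 1 highest, and the differences from WT were 2.63 ± 0.13 (adjusted p = 9.47e-17) in clone 1 and 0.96 ± 0.16 (adjusted p = 6.38e-06) in clone 2, the latter just inside the fold threshold.

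*Bnip3*, a receptor for the removal of mitochondria, had 23.8, 22.7 and 26.4 CPM in stimulated WT, 42.3, 46.4 and 37.6 CPM in clone 1 and 68.1, 78.3 and 79.1 CPM in clone 2. Uninduced libraries had 42.5, 25.6 and 26.6 CPM in WT, 22.9, 23.3 and 25.6 CPM in clone 1 and 33.6, 32.1 and 27.0 CPM in clone 2. Stimulated clones were above stimulated WT with no overlap, at 0.79 ± 0.15 (adjusted p = 0.000161) in clone 1 and 1.63 ± 0.15 (adjusted p = 2.8e-08) in clone 2, while uninduced groups overlapped in part and 1 WT library stood apart at 42.5 CPM. The related *Bnip3l* differed by 0.45 ± 0.048 and 0.54 ± 0.048.

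*Car9* and *Ankrd37*, also DEGs of stimulated clone 2, were low in counts. *Car9* had 0.0978, 0.0864 and 0 CPM in stimulated WT, 0.160, 0.0737 and 0.319 CPM in clone 1 and 0.672, 0.262 and 0.241 CPM in clone 2. Uninduced libraries had 6.93, 4.88 and 5.49 CPM in WT, 6.51, 7.46 and 4.66 CPM in clone 1 and 7.27, 7.57 and 7.94 CPM in clone 2. All stimulated libraries were below 1 CPM, with 4 counts in WT, 12 in clone 1 and 20 in clone 2, and the clone 2 difference from WT of 2.61 ± 0.72 (adjusted p = 0.00285) became 1.95 (adjusted p = 0.0571) without stimulated clone 2 replicate 1. *Ankrd37* had 0.245, 0.605 and 0.767 CPM in stimulated WT, 1.01, 0.516 and 0.364 CPM in clone 1 and 2.47, 2.68 and 2.65 CPM in clone 2. Its uninduced values were 0, 1.10 and 0.191 CPM in WT, 0.256, 0.322 and 0.673 CPM in clone 1 and 1.05, 0.841 and 0.580 CPM in clone 2. Only stimulated clone 2 stood clear of the other groups, at 2.25 ± 0.62 (adjusted p = 0.0027) against WT.

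The second *Aldoa* row, at chr7:126800790-126809108 on the minus strand, lies just upstream of the main *Aldoa* gene (chr7:126795234-126800751, minus strand) and held 183 counts over all libraries. It had 0.0489, 0.0864 and 0.0451 CPM in stimulated WT, 0.373, 0.479 and 0.273 CPM in clone 1 and 1.01, 0.785 and 1.20 CPM in clone 2. Uninduced libraries had 0, 0.0524 and 0.267 CPM in WT, 0.461, 0.590 and 0.155 CPM in clone 1 and 0.848, 0.974 and 0.696 CPM in clone 2. Its stimulated differences of 2.53 ± 0.84 (adjusted p = 0.0105) and 3.92 ± 0.78 (adjusted p = 8.12e-05) rest on 4 counts in WT. The main *Aldoa* row was at -0.01 in clone 1 and 0.53 in clone 2.

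In total, stimulated clone 1 had 5 DEGs above WT, against 9.42% of all genes, and 3 below, against 9.60%. Stimulated clone 2 had 8 above, against 7.95%, and 4 below, against 8.94%. The counts below WT were near the share of all genes in both clones. The 8 above WT in clone 2 included *Ankrd37* and the second *Aldoa* row, which passed the filter on low counts through the groups where they were high, and *Car9*, whose call rested on 1 library. The 5 above WT in clone 1 included the second *Aldoa* row as well. *Eno2*, below WT in each clone, reached the minimum level in only 3 groups. With the adjusted p alone clone 1 had 15 members above and 11 below WT, beside 28.4% and 30.5% of all genes. Clone 2 had 28 above and 4 below, beside 27.7% and 28.3%. The member medians were 0.11 and 0.55, or 0.13 and 0.57 without *Aldoc*, which was at or under the floor in these groups, and the medians of all genes were -0.02 and -0.01. *Pfkfb3* was lower than WT in each clone after stimulation as well, at 165, 163 and 159.7 CPM in WT, 100.4, 110.3 and 101 CPM in clone 1 and 71.0, 71.6 and 68.2 CPM in clone 2, and it was a DEG in clone 2 (-1.21 ± 0.069, adjusted p = 2.03e-15).

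**Figure D4:**
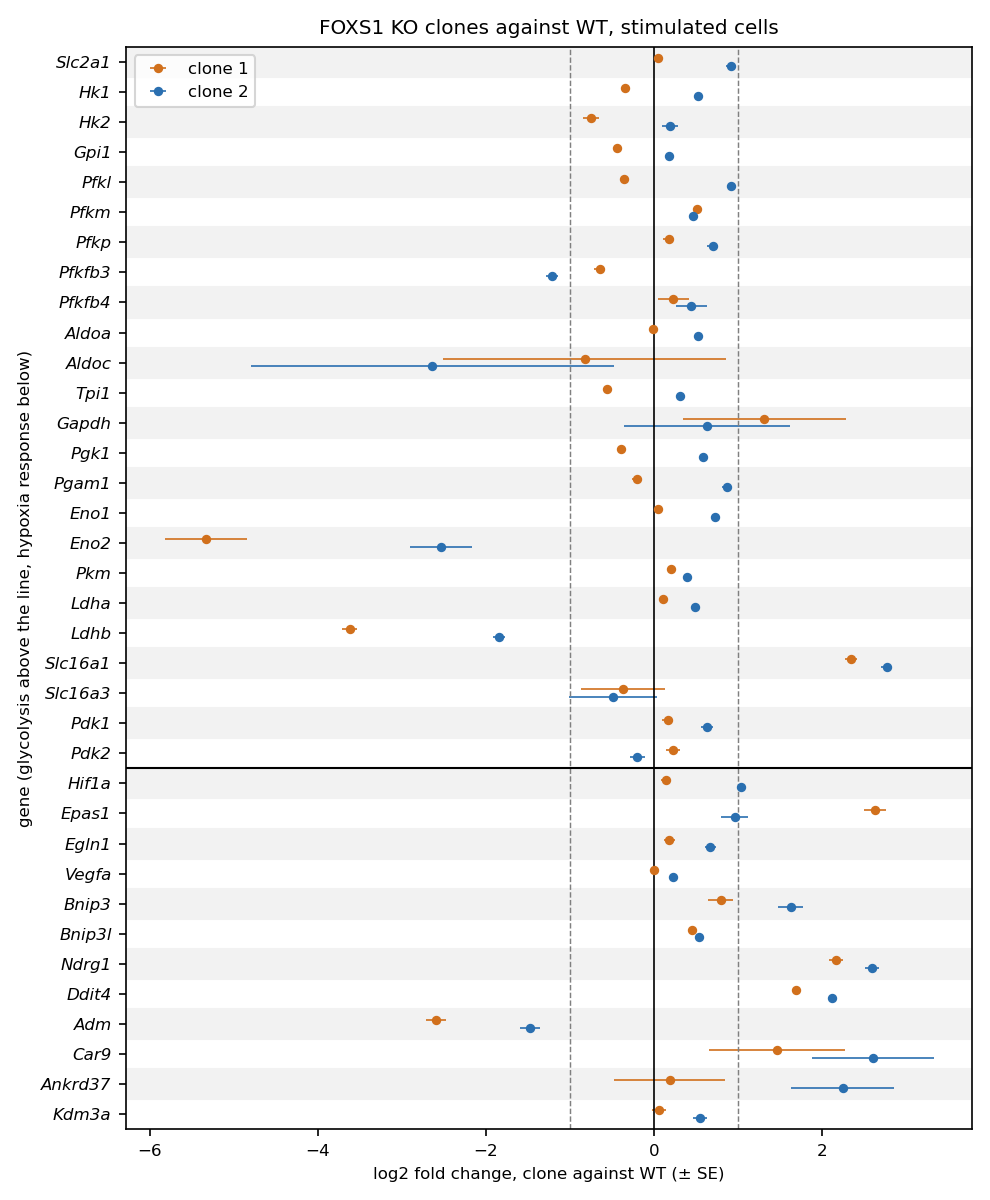
Log2 fold change of each tested member between stimulated clone 1 or clone 2 and stimulated WT cells, with SE and dashed lines at the DEG threshold of 1 in either direction. *Slc16a1*, *Ddit4* and *Ndrg1* lie right of the threshold for each clone and *Ldhb*, *Eno2* and *Adm* left of it. Most enzymes of the main chain lie right of 0 for clone 2 and on either side of it for clone 1. *Aldoc* was at or under the floor of 3 counts in these groups, and its fitted values are no measure of size.

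The difference in response, that is the response of a clone minus that of WT, was tested in the same model. *Slc2a1*, *Pfkfb3*, *Slc16a1*, *Ddit4*, *Bnip3* and *Epas1* had a difference above 0 as DEGs in each clone, which for *Epas1* was a smaller fall than in WT and for the other 5 a larger rise, or a rise in place of a fall. For *Slc16a1* the response was 0.54 ± 0.073 in WT, 2.50 ± 0.069 in clone 1 and 2.64 ± 0.067 in clone 2. The differences were 1.96 ± 0.10 (adjusted p = 6.42e-16) and 2.11 ± 0.098 (adjusted p = 1.13e-16). For *Ddit4* the responses were 0.26 ± 0.046, 2.04 ± 0.047 and 1.87 ± 0.046 in the same order, with differences of 1.78 ± 0.065 (adjusted p = 2.8e-19) and 1.61 ± 0.064 (adjusted p = 3.1e-18). Both genes passed the fold threshold in the clones and stayed within it in WT.

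For *Slc2a1* and *Pfkfb3* the difference began from lower uninduced levels in the clones. *Slc2a1* had stimulated values of 142, 139 and 139 CPM in WT, 156, 139 and 142 CPM in clone 1 and 261, 267 and 263 CPM in clone 2. Stimulated clone 1 and WT overlapped (0.05 ± 0.056, adjusted p = 0.412) and clone 2 stood above them. The differences in response were 1.24 ± 0.080 (adjusted p = 1.52e-13) and 2.04 ± 0.080 (adjusted p = 2.17e-18). *Pfkfb3* responded by 1.62 ± 0.069 in WT, 3.09 ± 0.081 in clone 1 and 2.71 ± 0.081 in clone 2, and stimulated clones still ended below WT. Its differences in response were 1.47 ± 0.11 (adjusted p = 1.96e-12) and 1.09 ± 0.11 (adjusted p = 1.39e-09). The second came to 0.99, inside the fold threshold, without uninduced clone 2 replicate 2. Tested genes within 500 kb of *Slc2a1*, 14 of them, had medians of -0.98 and -1.02 in the stimulated clones against WT. Their part in the *Slc2a1* values was not tested.

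*Epas1* fell by 4.50 on the log2 scale in WT, by 2.15 in clone 1 and by 2.41 in clone 2, with differences of 2.35 ± 0.16 (adjusted p = 7.68e-13) and 2.08 ± 0.18 (adjusted p = 2.09e-10). *Bnip3* had responses of -0.37 ± 0.15 in WT, 0.82 ± 0.15 in clone 1 and 1.27 ± 0.14 in clone 2, with differences of 1.18 ± 0.21 (adjusted p = 0.000277) and 1.64 ± 0.21 (adjusted p = 6.2e-06). Without uninduced WT replicate 1 the clone 1 difference was 0.92 and no longer past the fold threshold. *Adm* rose in WT (1.11 ± 0.11) and fell in clone 1 (-0.62 ± 0.13), a difference of -1.73 ± 0.17 (adjusted p = 1.74e-09), while clone 2 differed from WT by -0.32 ± 0.17 (adjusted p = 0.153) and did not pass. *Ndrg1* fell by less in clone 2, with a difference of 1.68 ± 0.10 (adjusted p = 9.01e-14), and clone 1 had 0.37 ± 0.10. The *Car9* difference of 2.21 ± 0.77 (adjusted p = 0.0279) in clone 2 was lost without stimulated WT replicate 3 (1.66, adjusted p = 0.115) or stimulated clone 2 replicate 1 (1.55, adjusted p = 0.20).

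Counted over the 37, the difference in response had 6 DEGs above 0 and 1 below (*Adm*) in clone 1, against 5.34% and 3.46% of all genes. In clone 2 it had 8 above and 0 below, against 4.89% and 2.96%. At an unadjusted p of 0.05 in edgeR's quasi-likelihood test 3 members were below 0 in clone 2 (*Ldhb*, *Hk2* and *Pfkfb4*), and DESeq2 called 0 DEGs below. *Hk2* had differences of -0.75 ± 0.16 and -0.55 ± 0.15, as it rose by 2.30 and 2.50 in the clones and by 3.05 in WT. *Vegfa* stood at 0.99 in clone 2, just inside the fold threshold.

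The clones were then compared with each other. Uninduced clone 1 had 1 DEG above clone 2 (*Epas1*), against 4.89% of all genes, and 4 below (*Eno2*, *Ldhb*, *Pfkl* and *Aldoc*), against 3.78%. Stimulated clone 1 had 1 above (*Epas1*, 1.67 ± 0.12, adjusted p = 2.8e-12), against 5.50%, and 6 below (*Adm*, *Ankrd37*, *Eno2*, *Ldhb*, *Pfkl* and *Pgam1*), against 4.48%. Among these calls, *Aldoc*, *Eno2* and *Ankrd37* passed the filter on low counts through groups where they were high. Without the fold threshold stimulated clone 1 had 3 members above clone 2 and 26 below, beside 22.2% and 23.2% of all genes. The median was -0.52. In this ordering *Pfkl*, the liver-type phosphofructokinase, was at 165 ± 3.23 CPM in clone 1, 211 ± 7.01 in WT and 399 ± 8.35 in clone 2, with a log2 fold change between the clones of -1.27 ± 0.049 (adjusted p = 9.51e-19). *Pgk1* differed by -0.97 ± 0.051, *Tpi1* by -0.87 ± 0.043 and *Hk1* by -0.86 ± 0.042. *Ddit4* (-0.43 ± 0.044) and *Slc16a1* (-0.42 ± 0.061) were also lower in clone 1 than in clone 2 by adjusted p. For *Pfkl* and *Hk1*, on chromosome 10, the chromosome medians against WT of -0.43 in clone 1 and 0.05 in clone 2 moved the same way, and their part was not tested.

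Members of the same family were also set against each other as shares of counts per kb, with no test. The gene length used spans all exons and can exceed the longest coding transcript. It was 8532 against 3851 bases for *Hk1*, 5969 against 5513 for *Hk2* and 13401 against 4145 for *Pfkp*. The size of a share therefore depends on the length chosen. Hexokinase counts per kb came almost wholly from *Hk1* before stimulation: *Hk2* held 3.04% ± 0.698 of them in WT, 3.41% ± 0.480 in clone 1 and 3.60% ± 0.289 in clone 2. After stimulation its share was 23.2% ± 0.424, 18.6% ± 1.11 and 19.5% ± 0.807, and every stimulated library was above every uninduced one. Without division by gene length it was 17.5%, 13.7% and 14.5%, from 2.15%, 2.41% and 2.55% before stimulation. Among phosphofructokinases the share of *Pfkl* went from 30.0% ± 1.46 to 48.9% ± 1.43 in WT, from 19.5% ± 0.712 to 35.0% ± 0.0879 in clone 1 and from 34.0% ± 0.278 to 56.1% ± 1.42 in clone 2. Without that division it was 41.7% and 57.9% in WT, 29.2% and 44.9% in clone 1 and 45.4% and 63.8% in clone 2. The share of the muscle-type *Pfkm* was lower in every stimulated library than in any uninduced library of the same genotype.

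The lactate dehydrogenase subunits differed by genotype more than by treatment. *Ldhb* held 29.6% ± 1.21 of the counts per kb in uninduced WT and 28.9% ± 1.14 in stimulated WT. It held 4.58% ± 0.267 and 2.97% ± 0.249 in clone 1, and 12.1% ± 0.647 and 7.46% ± 0.284 in clone 2, with no overlap between genotypes in either treatment. Without division by gene length the *Ldhb* share was 16.6% and 16.1% in WT, 2.23% and 1.43% in clone 1 and 6.14% and 3.68% in clone 2. *Pfkfb4* took 42.0% ± 0.498 and 55.3% ± 7.69 of the *Pfkfb3* and *Pfkfb4* counts per kb in the uninduced clones, compared with 11.5% ± 0.656 in WT. Without division by gene length the shares were 31.9%, 44.6% and 7.75%. *Pfkfb4* thus held the larger part in clone 2 only with that division. The gene length of *Pfkfb3* was 7561 bases, against 2216 for its longest coding transcript. In stimulated cells the shares of counts per kb were 5.86%, 9.59% and 3.25% in the same order. Of the 2 HIF alpha genes *Epas1* held 31.0% ± 3.01 in uninduced WT, 33.7% ± 1.89 in clone 1 and 9.87% ± 0.461 in clone 2. In stimulated cells it held 1.09% ± 0.198, 5.85% ± 0.545 and 1.04% ± 0.0707.

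**Figure D5:**
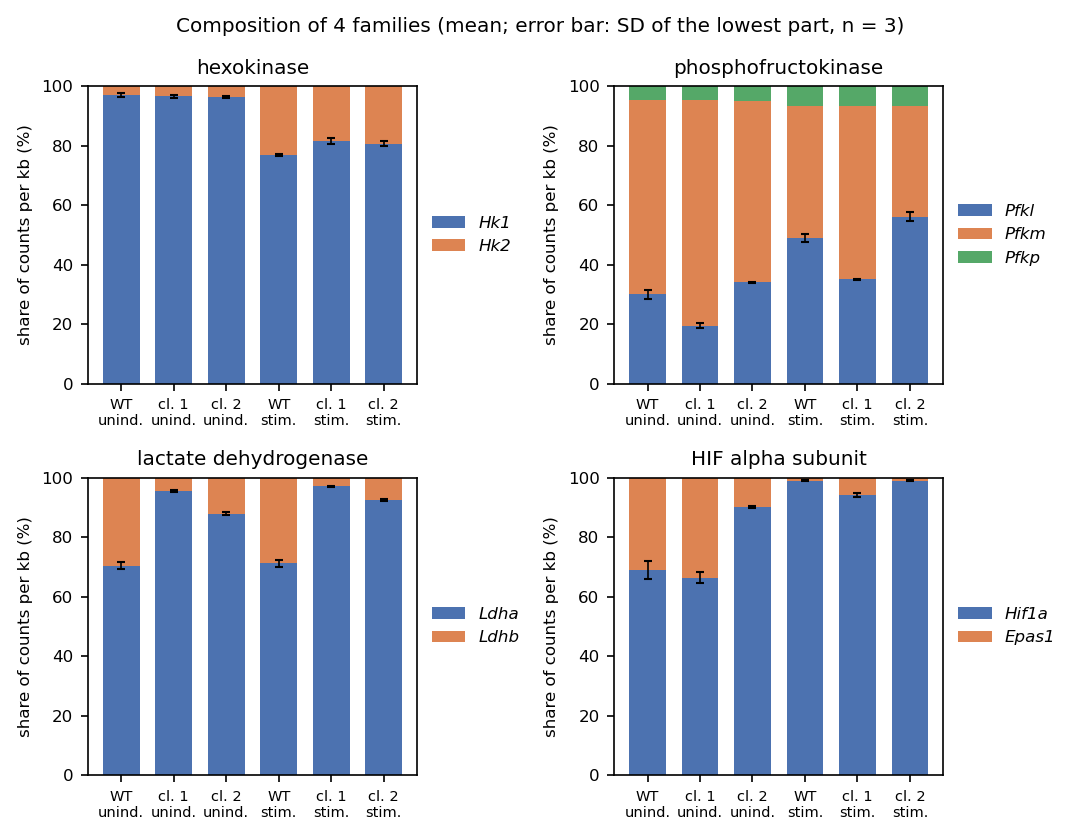
Share of each gene in the counts per kb of its family, as the mean of 3 libraries in each group, with the SD of the lowest part of each bar. *Hk2* and *Pfkl* take larger shares after stimulation in every genotype, and *Ldhb* takes a smaller share in clones 1 and 2 than in WT in both treatments.

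Further genes of the same pathways were counted from lists. Of 33 other glycolysis and pyruvate genes 25 were tested, and in stimulated cells clone 1 had 1 DEG above and 3 below WT, against 9.42% and 9.60% of all genes, and clone 2 had 1 above and 1 below, against 7.95% and 8.94%. By the adjusted p, 6 were above and 12 below WT in clone 1, against 28.4% and 30.5%, and 4 above and 10 below in clone 2, against 27.7% and 28.3%. The medians were -0.14 and -0.16. The DEG below WT in each clone reached the minimum level in only 2 of the 6 groups, so its call was partly set by the filter. *Galm*, which interconverts the forms of galactose and glucose, was above WT in each clone, at 5.98 ± 0.501 CPM in WT, 18.1 ± 1.99 in clone 1 and 15.9 ± 1.17 in clone 2. Its log2 fold changes were 1.60 ± 0.12 (adjusted p = 2.66e-12) and 1.41 ± 0.13 (adjusted p = 8.39e-11).

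Of 38 other genes of the HIF pathway or its targets 36 were tested. Stimulated clone 1 had 3 DEGs above WT and 5 below, against 9.42% and 9.60% of all genes, with a median of -0.03. Stimulated clone 2 had 9 above and 3 below, against 7.95% and 8.94%, with a median of 0.53. Some of the tested genes reached the minimum level in only 1 or 2 of the 6 groups, so their differences were partly set by the filter. Among them was a DEG below WT in each clone. By the adjusted p, 10 were above and 17 below WT in clone 1, against 28.4% and 30.5%. In clone 2, 22 were above and 5 below, against 27.7% and 28.3%. Above WT in both clones were 9 of the 36 and below WT in both were 4, beside 2663 and 2819 of all 14317 tested genes. Of the 36, 3 were DEGs in opposite directions in the clones, beside 43 of all 14317 tested genes. *Cited2*, a HIF target that competes with HIF for its coactivator, was at 46.6 ± 2.01 CPM in WT, 114 ± 3.17 in clone 1 and 157 ± 2.94 in clone 2, at 1.30 ± 0.057 (adjusted p = 3.67e-18) and 1.75 ± 0.057 (adjusted p = 2.73e-21). *Angptl4*, an inhibitor of lipoprotein lipase, was lower, at 161 ± 7.38 CPM in WT, 11.3 ± 1.50 in clone 1 and 9.43 ± 0.821 in clone 2. Its log2 fold changes were -3.82 ± 0.090 (adjusted p = 8.78e-25) and -4.09 ± 0.095 (adjusted p = 7.15e-25). Among the members, not this list, the hydroxylase gene *Egln1* was at 0.19 ± 0.063 and 0.67 ± 0.063 against WT. The demethylase gene *Kdm3a*, also a member, was at 0.06 ± 0.083 and 0.55 ± 0.083.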

How the data were processed

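The authors sequenced poly(A) RNA of 18 libraries as 150 bp paired-end reads, mapped it to GRCm38 (mm10) with HISAT2 and deposited raw counts per gene. Not given in the sources used here are the counting program, the annotation release and the strand setting; the deposited count table gave the gene lengths and positions used. The analysis used edgeR 4.0.16 in R 4.3.3: filterByExpr by group (minimum count 10) left 14317 genes, TMM scaled the libraries, and 1 model of all 6 groups gave 11 contrasts by the quasi-likelihood test with robust dispersion. Alternatives were DESeq2 1.42.0, its size factors in edgeR, no filter or one of 1 CPM in 3 libraries, fitting only the groups compared, a replicate block and leaving out each library. Sequence sharing and neighbours used GENCODE M21 (GRCm38), and Python 3.11.15 drew the figures. Replicates differed by more than counting error (chi-square per degree of freedom 3.13 to 14.6 over 18 pairs). A floor of 3 counts per group is 0.0354 to 0.0603 CPM, and floors and intervals cover counting error only.

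The members and lists were chosen with earlier results of these data known. By rule, all members may be named, those that were DEGs between a stimulated clone and WT or in a difference in response were given in every library, and other pathway genes were named where they were DEGs in 1 direction in both stimulated clones with a mean of at least 5 CPM.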

Additional observations from a re-analysis of the deposited data

Results flagged for a closer look

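These genes had a response to TGF-β1 + DMII that differed between a clone and WT cells, by a test of the difference itself (edgeR's quasi-likelihood test, Benjamini-Hochberg adjusted over all genes) with an absolute log2 difference above 1. In clone 1, which was compared with the same WT libraries as clone 2, the differences were 1.24 ± 0.080 (adjusted p = 1.52e-13) for *Slc2a1*, 1.47 ± 0.11 (adjusted p = 1.96e-12) for *Pfkfb3* and 1.96 ± 0.10 (adjusted p = 6.42e-16) for *Slc16a1*. They were 2.35 ± 0.16 (adjusted p = 7.68e-13) for *Epas1*, 1.18 ± 0.21 (adjusted p = 0.000277) for *Bnip3* and 1.78 ± 0.065 (adjusted p = 2.8e-19) for *Ddit4*. *Adm* differed in the other direction, by -1.73 ± 0.17 (adjusted p = 1.74e-09). Without uninduced WT replicate 1 the *Bnip3* difference was 0.92, inside the fold threshold.

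In clone 2 the differences were 2.04 ± 0.080 (adjusted p = 2.17e-18) for *Slc2a1*, 1.09 ± 0.11 (adjusted p = 1.39e-09) for *Pfkfb3* and 2.11 ± 0.098 (adjusted p = 1.13e-16) for *Slc16a1*. They were 2.08 ± 0.18 (adjusted p = 2.09e-10) for *Epas1*, 1.64 ± 0.21 (adjusted p = 6.2e-06) for *Bnip3*, 1.68 ± 0.10 (adjusted p = 9.01e-14) for *Ndrg1* and 1.61 ± 0.064 (adjusted p = 3.1e-18) for *Ddit4*. *Car9* differed by 2.21 ± 0.77 (adjusted p = 0.0279), with every stimulated library below 1 CPM. Its call was lost without stimulated WT replicate 3 or stimulated clone 2 replicate 1. Without uninduced clone 2 replicate 2 the *Pfkfb3* difference was 0.99, inside the fold threshold.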

How the results depend on the processing

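Across the 37 tested members and 11 comparisons, 407 log2 fold changes and the numbers of DEGs were recomputed under other filters, scalings and models and without each library. The numbers of DEGs stayed within 1.5 times those reported except without the fold threshold. With no fold threshold there were 27, 28 and 34 of the 37 members in the responses of WT, clone 1 and clone 2 (60.7%, 54.5% and 55.8% of all genes), 20 and 26 in uninduced clones 1 and 2 against WT (53.5% and 53.2%), 26 and 32 in the stimulated clones (58.9% and 56.0%), 19 and 25 in the differences in response (31.6% and 31.2%), and 23 and 29 between the clones, uninduced and stimulated (42.2% and 45.4%). Leaving out each library in turn gave ranges of 9 to 10, 10 to 11 and 16 to 17 for the responses, 6 to 7 and 7 to 9 for the uninduced clones, 8 to 8 and 11 to 13 for the stimulated clones, 6 to 7 and 7 to 9 for the differences in response, and 4 to 5 and 7 to 8 between the clones. The single reversal was *Bnip3* in uninduced clone 2 against WT, at -0.01 with all libraries and from -0.14 to 0.25 when 1 library was left out, the latter (adjusted p = 0.0309) without uninduced WT replicate 1. *Eno2* in the clone 1 response was at -2.23 (adjusted p = 0.0596) when only the groups compared were fitted, and *Aldoc* between the uninduced clones lost its call in 5 alternatives; the causes were not tested. *Vegfa* in the clone 2 difference in response and *Epas1* in stimulated clone 2, just inside the fold threshold, passed it in 7 and 3 alternatives. Counts not divided by gene length moved 80 of 132 isoenzyme shares by over 1 SD, the *Pfkfb4* share of uninduced clone 2 from 55.3% to 44.6% among them.

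Replicate numbers did not pair the libraries: over 45 pairs with the same number r ran from -0.04 to 0.05, with none over 0.1, and in 17 of the 45 the own number correlated best. A replicate block left each of the 11 counts of DEGs as it was (9, 10 and 17 in the responses, 8 and 12 in the stimulated clones against WT, 7 and 8 in the differences in response) and changed no call. Low counts limit *Aldoc*, *Car9*, *Ankrd37*, *Eno2*, *Slc16a3* and the second *Aldoa* row.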

Other observations

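These genes outside the 39 were chosen after their values were seen. *Pdk4*, a pyruvate dehydrogenase kinase that limits the entry of pyruvate into mitochondria, rose from 137 ± 6.08 to 928 ± 14.3 CPM in WT, from 4.21 ± 0.232 to 163 ± 9.52 CPM in clone 1 and from 12.4 ± 1.73 to 497 ± 27.9 CPM in clone 2. Its response was larger in the clones by 2.51 ± 0.11 (adjusted p = 1.59e-17) and 2.56 ± 0.090 (adjusted p = 1.75e-19) in edgeR's quasi-likelihood test. *Plod2*, a lysyl hydroxylase, rose on stimulation by 2.62 ± 0.052 in WT, 2.45 ± 0.052 in clone 1 and 2.73 ± 0.053 in clone 2, and *Lox*, lysyl oxidase, rose by 2.14 ± 0.045, 1.29 ± 0.044 and 2.29 ± 0.045. *Stc1*, a secreted glycoprotein, was at 1.01 ± 0.286 CPM in stimulated WT and 3.42 ± 1.26 CPM in stimulated clone 1, and had 0 counts in stimulated clone 2.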
